A study of Mus musculus with 16 samples.

Results

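The ER stress and Plk3-ATF4 response was followed through 40 named genes of the unfolded protein response, of which 36 had a probe set annotated to that gene alone, out of 19237 genes with such a probe set. The genes were chosen by symbol, with earlier results of these data known. Where a gene had several probe sets, the one with the highest mean log2 intensity was taken. Atf5, Ddit3 and Pdia4 were read only by probe sets annotated to more than 1 gene and are not analysed here. Ero1lb stands in the annotation under its current symbol Ero1b, so it is counted outside the 36 and given by its values.

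The samples were livers of mice 17 to 19 weeks old that ate freely and were killed at 7 am, with 1 whole-transcript Affymetrix array per liver. The 8 LRH-1 hep-/- livers carry a deletion of LRH-1, the nuclear receptor encoded by Nr5a2, which the hep notation places in hepatocytes, and the 8 LRH-1 hep +/+ livers are their controls. The sources used here do not give the driver of the deletion, the exons removed, the strain or the sex. All levels are log2 probe-set intensities, and each difference is LRH-1 hep-/- minus LRH-1 hep +/+.

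Proteins that enter the endoplasmic reticulum (ER) fold there with the help of chaperones, and an excess of unfolded protein is sensed by PERK, IRE1 and ATF6. PERK phosphorylates the initiation factor eIF2 alpha, which slows translation in general and favours that of ATF4, while IRE1 splices the Xbp1 mRNA and ATF6 is cleaved to an active factor. Together these factors raise chaperones, disulphide isomerases, amino acid genes and the machinery of ER-associated degradation. Hepatocytes secrete most plasma proteins and keep this system active. In mouse liver LRH-1 has been reported to act on the resolution of ER stress through the kinase Plk3, which modifies ATF2.

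Nr5a2 was lower in all LRH-1 hep-/- livers, with a lowest, median and highest level of 7.25, 7.77 and 8.25 against 8.45, 8.70 and 8.78 in LRH-1 hep +/+ livers (difference -0.88, exact 2-sided permutation p = 0.000155). The 6 hepatocyte markers, Alb among them, summed to intensities of 39100 to 41100 in LRH-1 hep-/- livers and 38900 to 44300 in LRH-1 hep +/+ livers, and none of them passed. Of the markers of other cells, none of the adipocyte, pancreatic acinar, Kupffer, endothelial, lymphocyte or neutrophil lists passed. Adipocyte markers stood out in LRH-1 hep-/- liver 1 and in LRH-1 hep +/+ livers 5 and 8. Across all genes, LRH-1 hep-/- livers 4 and 8 and LRH-1 hep +/+ liver 1 lay farthest from their genotype's median, at a mean absolute log2 deviation of 0.186 to 0.217 against 0.087 to 0.144 in the other livers. The labels call the livers biological replicates and give no batch. In bulk liver, fewer cells of a type and less RNA per cell cannot be told apart.

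Some of the stress genes passed the test between the genotypes. Plk3, Atf4 and the phosphatase subunit gene Ppp1r15b were lower in LRH-1 hep-/- livers, and the PERK gene Eif2ak3 and the degradation gene Derl3 were higher. That made 5 of 36 genes (13.9%) at a limma adjusted p under 0.05, beside 8.70% of all genes tested. The 3 that fell (8.33%) compare with a background of 3.20% of all genes, and the 2 that rose (5.56%) with 5.49%. The genes and the lists below were chosen with earlier results of these data known, so their shares are description only. The background itself was 1057 higher and 616 lower genes, or 761 and 663 after centring each array on its median. Ppp1r15b and Eif2ak3 did not overlap between the genotypes in any liver, beside 2.89% of all genes. Non-overlapping and lower were 1.20% of all genes, Ppp1r15b among them, and non-overlapping and higher 1.69%, Eif2ak3 among them. The median difference of the 36 genes was 0.056, against 0.002 over all genes tested. Before adjustment 11 of the 36 genes were under 0.05 in limma (30.6%), beside 17.6% of all genes tested. Of the 31 genes that did not pass, 26 had a 95% interval of the difference within 0.5 log2 unit of 0 on both sides, and 17 within 0.3.

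**Figure D1:**
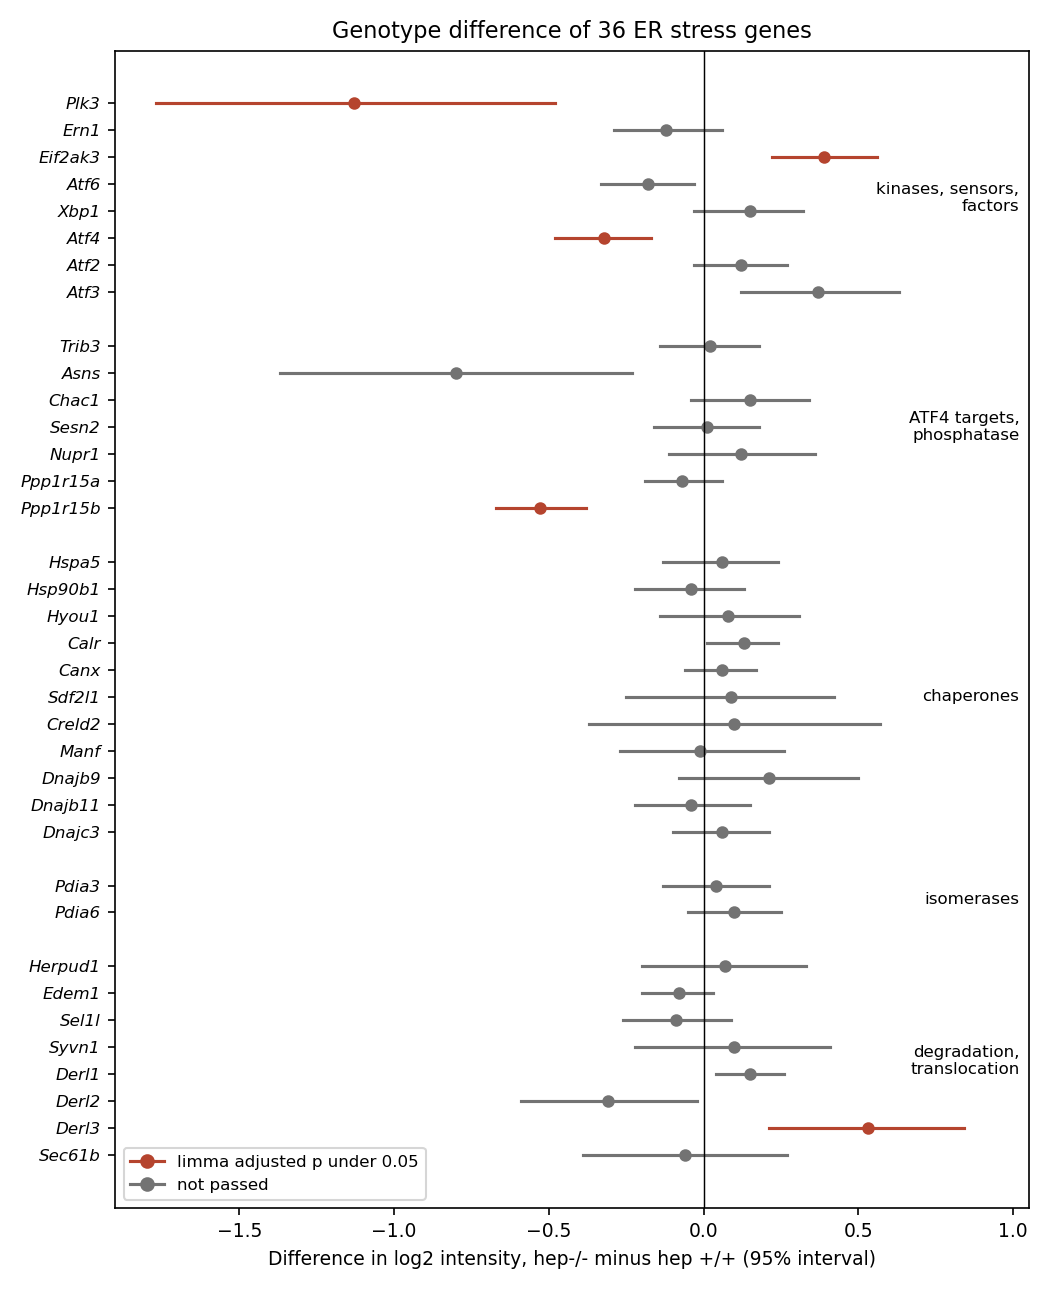
Difference in log2 intensity (LRH-1 hep-/- minus LRH-1 hep +/+, 8 livers each) of the 36 genes with 95% intervals from limma, grouped by role and with the genes that passed in red. Plk3 lies farthest to the left at -1.13 with a wide interval, and the chaperone and isomerase genes lie close to 0.

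Plk3, a stress-responsive polo-like kinase, had the largest decrease among the 36. Its lowest, median and highest levels were 6.27, 6.62 and 7.22 in LRH-1 hep-/- livers, against 6.73, 7.73 and 9.50 in LRH-1 hep +/+ livers. Liver by liver, the LRH-1 hep-/- arrays 1 to 8 read 6.51, 6.55, 6.70, 7.22, 6.80, 6.51, 6.27 and 6.83. The LRH-1 hep +/+ arrays 1 to 8 read 6.73, 7.39, 6.78, 8.23, 9.50, 8.06, 8.70 and 7.00. The control livers were thus spread over 6.83-fold and the LRH-1 hep-/- livers over 1.93-fold, and 5 of 8 control livers stood above every LRH-1 hep-/- liver while the other 3 lay within their range. The mean was 6.67 ± 0.29 in LRH-1 hep-/- and 7.80 ± 1.00 in LRH-1 hep +/+ livers (SD, n = 8 each), a difference of -1.13 ± 0.31 (SE) or 45.8% of the control level. It passed in limma (adjusted p = 0.0242) and gave an exact 2-sided permutation p of 0.00528. Without LRH-1 hep +/+ liver 7 the limma adjusted p was 0.0555, and with an intensity trend and robust variances it was 0.0745. The highest control, liver 5, is an array with adipocyte transcripts, and without the 3 such arrays the difference was -0.95 (limma adjusted p = 0.0463).

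Atf4 encodes the bZIP factor whose translation rises when eIF2 alpha is phosphorylated. Its mRNA read 6.64, 6.86 and 7.09 (lowest, median and highest) in LRH-1 hep-/- livers and 7.06, 7.16 and 7.34 in LRH-1 hep +/+ livers. The difference was small and steady, -0.32 ± 0.07 (SE), or 79.9% of the control level (limma adjusted p = 0.00683, exact permutation p = 0.000932), and 6 of 8 LRH-1 hep-/- livers lay below every control. The transcript level is not a measure of ATF4 protein, whose control is largely translational.

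The promoters of Plk3 and Atf4 are shown because these genes give the response its name and both fell. The windows run from 250 bases before to 50 bases after the RefSeq start (build GRCm38.p6). Capitals mark CCACG or its reverse complement, the sequence that ends the ER stress response element.
Plk3 (chr4:117133914-117134213, - strand): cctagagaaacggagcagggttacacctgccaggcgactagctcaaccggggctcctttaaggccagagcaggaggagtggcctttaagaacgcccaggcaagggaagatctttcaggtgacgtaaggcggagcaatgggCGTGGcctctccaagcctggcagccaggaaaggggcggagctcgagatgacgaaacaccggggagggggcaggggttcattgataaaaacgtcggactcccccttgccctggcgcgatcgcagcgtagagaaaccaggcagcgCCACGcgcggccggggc
Atf4 (chr15:80254934-80255233, + strand): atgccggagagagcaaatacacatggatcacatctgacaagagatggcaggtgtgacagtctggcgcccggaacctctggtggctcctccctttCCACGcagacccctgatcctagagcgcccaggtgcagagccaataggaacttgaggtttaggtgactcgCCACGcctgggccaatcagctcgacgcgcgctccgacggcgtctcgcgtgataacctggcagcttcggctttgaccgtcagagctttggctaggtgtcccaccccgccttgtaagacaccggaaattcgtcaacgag
Each window held CCACG on either strand in 2 places, and 35.5% of 27025 genes with a window held it at least once. The sequence AAGGTCA, a core that LRH-1 can bind, was in neither window nor in that of any of the 31 genes matched to the table, against 5.38% of all genes. Other spellings of the core were not searched, among them AAGGCCA, which the printed Plk3 window holds. The absence of AAGGTCA therefore does not show that a window lacks a site for LRH-1. These matches describe the letters of short windows only.

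Of the 3 sensor genes, 1 passed, on a list too short to set against the 8.70% of all genes tested. Eif2ak3, which encodes PERK, read 7.20, 7.40 and 7.52 in LRH-1 hep-/- livers and 6.50, 7.05 and 7.17 in LRH-1 hep +/+ livers, so the genotypes did not overlap. It rose by 0.39 ± 0.08 (SE), or 1.31-fold (limma adjusted p = 0.00314). The lowest control, liver 3, stood apart at 6.50 with the other controls at 6.96 or more, and without it the difference was 0.32. Ern1, which encodes IRE1 alpha, averaged 8.63 ± 0.18 in LRH-1 hep-/- and 8.74 ± 0.15 in LRH-1 hep +/+ livers, a difference of -0.12 with a 95% interval of -0.29 to 0.06. Atf6 averaged 8.26 ± 0.13 in LRH-1 hep-/- and 8.44 ± 0.13 in LRH-1 hep +/+ livers, a difference of -0.18 (95% interval -0.33 to -0.03). Atf6 did not pass (limma adjusted p = 0.146), but it did with array weights (-0.23, limma adjusted p = 0.0362).

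Among the other transcription factors none passed, beside 8.70% of all genes tested. Xbp1, the substrate of IRE1, differed by 0.15 (95% interval -0.03 to 0.32). The array reads the gene as a whole and does not separate spliced from unspliced mRNA. Atf2, the factor reported downstream of Plk3, differed by 0.12 (-0.03 to 0.27). Atf3, an early stress-induced factor, read 5.38, 5.91 and 6.07 in LRH-1 hep-/- livers and 4.98, 5.49 and 5.87 in LRH-1 hep +/+ livers. Its difference of 0.37 ± 0.12 (SE) missed the threshold (limma adjusted p = 0.0683) and passed without LRH-1 hep +/+ liver 5 (0.0259), LRH-1 hep-/- liver 7 (0.0256) or LRH-1 hep-/- liver 8 (0.0244).

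**Figure D2:**
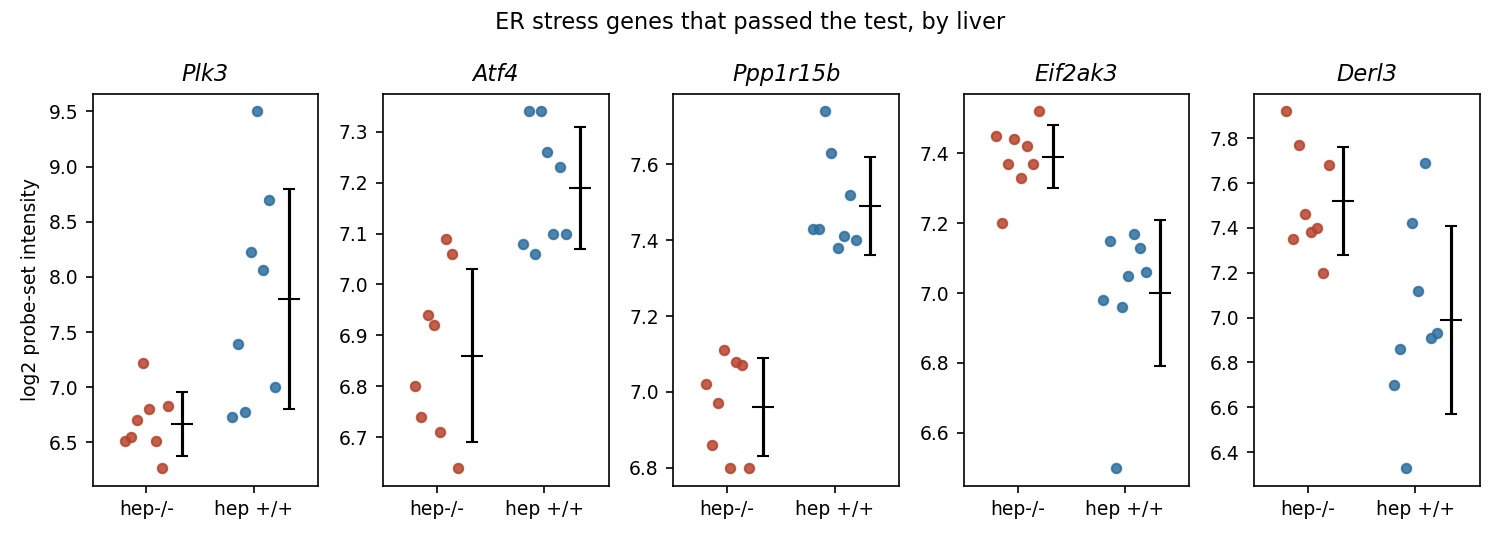
Log2 intensity of Plk3, Atf4, Ppp1r15b, Eif2ak3 and Derl3 in each of the 8 LRH-1 hep-/- livers (red, left) and 8 LRH-1 hep +/+ livers (blue, right), with the mean and SD in black. Each panel has its own axis, which does not start at 0. Ppp1r15b and Eif2ak3 are fully separated, and the Plk3 controls run over 6.73 to 9.50.

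Phosphate is removed from eIF2 alpha by protein phosphatase 1 with either of 2 regulatory subunits. Of these 1 passed, beside 8.70% of all genes tested. Ppp1r15b encodes the constitutive subunit, CReP. It read 6.80, 6.99 and 7.11 (lowest, median and highest) in LRH-1 hep-/- livers and 7.38, 7.43 and 7.74 in LRH-1 hep +/+ livers, with no overlap. The means were 6.96 ± 0.13 in LRH-1 hep-/- and 7.49 ± 0.13 in LRH-1 hep +/+ livers (SD, n = 8 each), a difference of -0.53 ± 0.07 (SE) or 69.3% of the control level. This was the smallest p of the 36 genes (limma adjusted p = 2.26e-05). A second probe set of Ppp1r15b, with 6.30 ± 0.13 in LRH-1 hep-/- and 6.48 ± 0.14 in LRH-1 hep +/+ livers, gave -0.18, and the mean of both gave -0.35 (limma adjusted p = 0.000331). Ppp1r15a, which encodes the stress-induced subunit GADD34, differed by -0.07 (95% interval -0.19 to 0.06). Its means were 5.60 in LRH-1 hep-/- and 5.67 in LRH-1 hep +/+ livers, and whether it read above background was not tested. The difference between the 2 subunits' changes was not tested.

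The target genes of ATF4 among the 36 did not pass, beside 8.70% of all genes tested. Trib3, a pseudokinase induced late in the response, differed by 0.02 (95% interval -0.14 to 0.18). Sesn2, a restraint on mTORC1, differed by 0.01 (-0.16 to 0.18). Chac1, a glutathione-degrading enzyme, differed by 0.15 (-0.04 to 0.34), and Nupr1, a small stress-induced nuclear protein, by 0.12 (-0.11 to 0.36). Asns, the asparagine synthetase gene, was the widest of them. It read 4.88, 5.33 and 6.34 in LRH-1 hep-/- livers, against 5.14, 6.65 and 7.03 in LRH-1 hep +/+ livers. Among the controls 5 livers stood at 6.63 or more and 3 at 5.62 or less, so the groups overlapped. Its difference of -0.80 ± 0.27 (SE) missed the threshold (limma adjusted p = 0.0824) and passed without LRH-1 hep +/+ liver 6 (0.0487), LRH-1 hep +/+ liver 7 (0.0194) or LRH-1 hep-/- liver 1 (0.0439).

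A form of the amino acid response element, the site at which ATF4 binds with C/EBP partners, was in the windows of 6 of the 31 genes, against 4.5% of all genes with a window. The motif searched was TGATGNAAN on both strands, and capitals mark the match. The 6 are shown because they are the genes of the response with this sequence near the start. None of them passed the test between genotypes, beside 8.70% of all genes tested.
Asns (chr6:7693214-7693242, - strand): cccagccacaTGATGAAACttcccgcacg
Atf3 (chr1:191183426-191183454, + strand): gcggacttggTGATGCAAGtgcgagaagg
Chac1 (chr2:119351038-119351066, - strand): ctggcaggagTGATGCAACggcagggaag
Trib3 (chr2:152344029-152344057, + strand): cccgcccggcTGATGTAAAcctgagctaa
Nupr1 (chr7:126625563-126625591, + strand): aagccctgtcTGATGCAATctggcccttt
Herpud1 (chr8:94386306-94386334, - strand): gggtgcgggcTGATGCAACccgccgtggt
Asns, Chac1, Trib3, Atf3 and Nupr1 are genes commonly used as readouts of ATF4, and Herpud1 acts in degradation.

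Beyond these, 25 further ATF4 and amino acid response genes were measured, of which 3 fell and 0 rose, with a median difference of -0.002. The 3 are 12% of this list, beside 3.20% lower among all genes tested. Cth, which makes cysteine from cystathionine, fell to 9.91 ± 0.27 in LRH-1 hep-/- livers, against 11.16 ± 0.19 in LRH-1 hep +/+ livers (SD, n = 8 each). That is a difference of -1.25, or 42.1% of the control level (limma adjusted p = 8.48e-08). Gpt2, the mitochondrial alanine aminotransferase, differed by -0.68 (limma adjusted p = 8.07e-05), and both genes were fully separated between the genotypes. Eif4ebp1, an inhibitor of cap-dependent translation, differed by -0.28 (limma adjusted p = 0.0162). Of 12 measured genes for aminoacyl-tRNA synthetases and the tRNA exporter Xpot none passed in limma, and 4 (33.3%) were under 0.05 before adjustment, beside 17.6% of all genes. Xpot had the smallest p, at a difference of -0.22, and passed without LRH-1 hep +/+ liver 1 (adjusted p = 0.0285). Of 10 measured eIF2 alpha kinases and subunits of eIF2 and eIF2B none passed, beside 8.70% of all genes tested. None of the 10 had an unadjusted limma p under 0.05, beside 17.6% of all genes. Eif2s2, a subunit of eIF2, differed most in p, by -0.20.

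No ER chaperone gene passed the test between the genotypes, beside 8.70% of all genes tested. In a list of 11 genes that share comes to few calls. Among the 11, Calr was the 1 gene with p under 0.05 before adjustment in limma (9.09%), beside 17.6% of all genes. The median difference of the 11 was 0.057. Hspa5, which encodes the master chaperone BiP, read 11.55, 11.73 and 11.85 in LRH-1 hep-/- livers and 11.18, 11.73 and 11.90 in LRH-1 hep +/+ livers. Its difference was 0.06 with a 95% interval of -0.13 to 0.24. Hsp90b1, the ER paralogue of HSP90, differed by -0.04 (-0.22 to 0.13), and Hyou1, a nucleotide exchange factor of BiP, by 0.08 (-0.14 to 0.31). The lectin chaperones calreticulin (Calr) and calnexin (Canx) differed by 0.13 (0.01 to 0.24) and 0.06 (-0.06 to 0.17). Among the J-domain partners of BiP, Dnajb9 differed by 0.21 (-0.08 to 0.50; 0.09 without LRH-1 hep +/+ liver 3), Dnajb11 by -0.04 (-0.22 to 0.15) and Dnajc3 by 0.06 (-0.10 to 0.21). Manf, a secreted ER protein, differed by -0.01 (-0.27 to 0.26). Sdf2l1, a component of the BiP complex, differed by 0.09 (-0.25 to 0.42), and Creld2, an ER-resident protein induced by stress, by 0.10 (-0.37 to 0.57). Of the isomerases, Pdia3 differed by 0.04 (-0.13 to 0.21) and Pdia6 by 0.10 (-0.05 to 0.25). Ero1b, an oxidase that recharges the isomerases, read 7.43, 8.31 and 8.61 in LRH-1 hep-/- livers and 8.08, 8.53 and 8.98 in LRH-1 hep +/+ livers, and its difference of -0.30 did not pass (limma adjusted p = 0.313) and was -0.18 without LRH-1 hep-/- liver 8.

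Within each genotype, single livers stood low in many chaperone genes at once. LRH-1 hep +/+ liver 3 was the lowest of its genotype in 11 of 11 chaperone genes, and in 18 of 21 chaperone, isomerase and degradation genes. The mean over the 11 chaperones was 9.54 in that liver and 9.95 to 10.29 in the other controls. In LRH-1 hep-/- livers the mean ran from 9.82 in liver 2 to 10.28 in liver 3, and liver 2 was lowest in 6 and liver 5 in 4 of the 11 genes. Creld2 had the widest range among the chaperones, over 3.27-fold in LRH-1 hep-/- and 3.35-fold in LRH-1 hep +/+ livers. Canx ranged over 1.08-fold in LRH-1 hep-/- and 1.23-fold in LRH-1 hep +/+ livers. Without LRH-1 hep +/+ liver 3 the differences of Hspa5 (-0.01), Sdf2l1 (-0.03), Creld2 (-0.08), Herpud1 (-0.04) and Syvn1 (-0.02) turned sign, all far from passing.

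**Figure D3:**
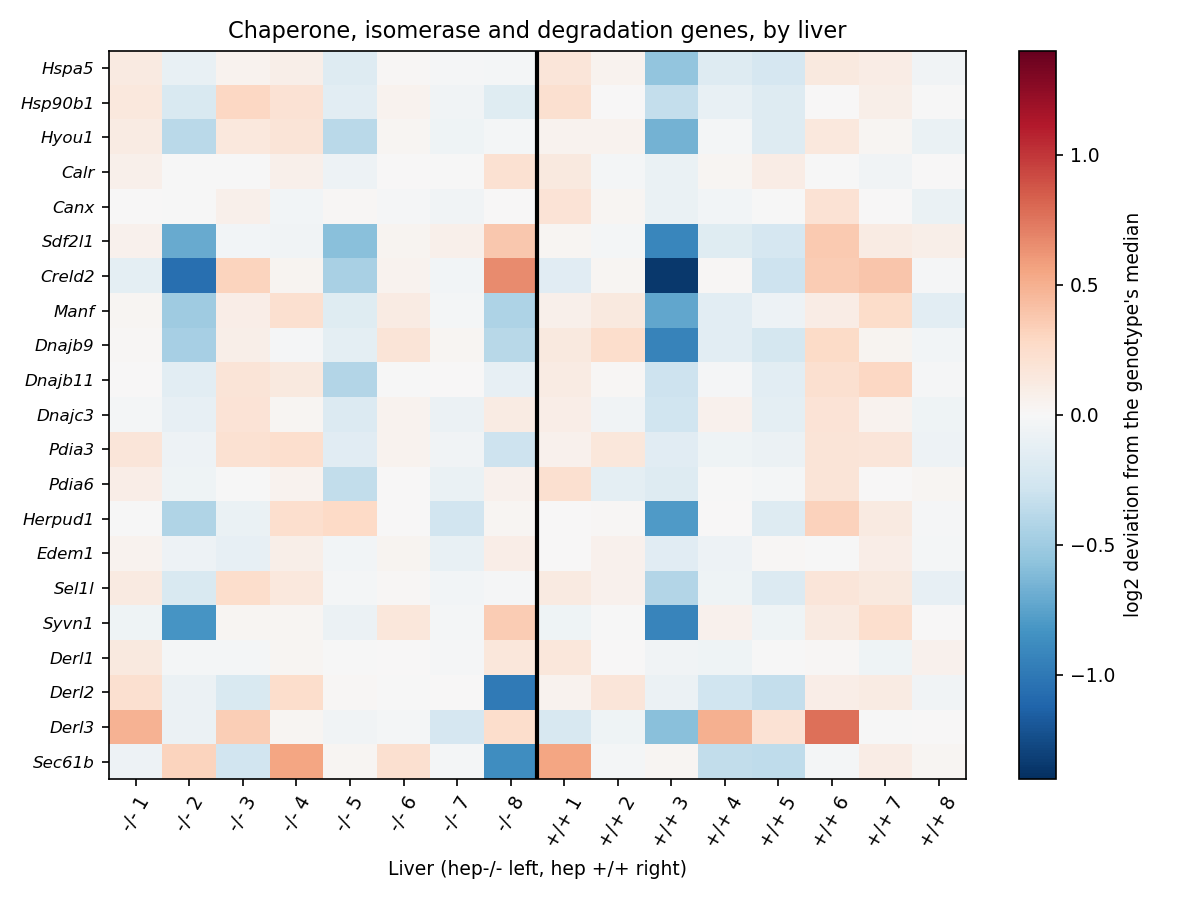
Deviation of each liver from its own genotype's median (log2, colour) for 21 chaperone, isomerase and degradation genes, in rows, with the 8 LRH-1 hep-/- livers left of the black line and the 8 LRH-1 hep +/+ livers right of it. LRH-1 hep +/+ liver 3 and LRH-1 hep-/- liver 2 are blue through most rows, deepest in Creld2, Sdf2l1 and Syvn1.

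Relations between members were tested within each genotype over 8 livers, 10 relations in all, with exact 2-sided permutation tests and Benjamini-Hochberg adjustment. Hspa5 and Hsp90b1 levels correlated in LRH-1 hep-/- livers (r = 0.81, exact p = 0.0135, adjusted 0.045; rho = 0.83, exact p = 0.0154, adjusted 0.0513). In LRH-1 hep +/+ livers r was 0.95 (exact p = 0.000149, adjusted 0.00149) and rho 0.93 (exact p = 0.00223, adjusted 0.0223). Without the 2 livers farthest from the median of Hspa5, r was 0.91 in LRH-1 hep-/- and 0.82 in LRH-1 hep +/+ livers. Hspa5 and Dnajb9 had r = 0.55 in LRH-1 hep-/- livers (exact p = 0.156, adjusted 0.223; rho = 0.55, exact p = 0.171, adjusted 0.244) and r = 0.96 in LRH-1 hep +/+ livers (exact p = 0.000868, adjusted 0.00434; rho = 0.88, exact p = 0.00724, adjusted 0.0362), and without the 2 farthest livers r was 0.73 in LRH-1 hep-/- and 0.81 in LRH-1 hep +/+ livers. Plk3 with Nr5a2 gave r = 0.69 in LRH-1 hep-/- livers (exact p = 0.0499, adjusted 0.125; rho = 0.76, exact p = 0.0368, adjusted 0.0919; r = 0.92 without the 2 farthest) and r = 0.61 in LRH-1 hep +/+ livers (exact p = 0.119, adjusted 0.223; rho = 0.57, exact p = 0.151, adjusted 0.244; r = 0.32 without the 2 farthest). Plk3 with Atf4 gave r = -0.34 in LRH-1 hep-/- livers (exact p = 0.42, adjusted 0.466; rho = -0.52, exact p = 0.197, adjusted 0.246; r = -0.59 without the 2 farthest) and r = 0.55 in LRH-1 hep +/+ livers (exact p = 0.154, adjusted 0.223; rho = 0.67, exact p = 0.0831, adjusted 0.166; r = 0.46 without the 2 farthest). Atf4 with Asns gave r = -0.46 in LRH-1 hep-/- livers (exact p = 0.245, adjusted 0.306; rho = -0.24, exact p = 0.582, adjusted 0.647; r = -0.33 without the 2 farthest) and r = -0.11 in LRH-1 hep +/+ livers (exact p = 0.812, adjusted 0.812; rho = 0.0, exact p = 1.0; r = -0.19 without the 2 farthest). Only the Hspa5 and Hsp90b1 pair in both genotypes and the Hspa5 and Dnajb9 pair in LRH-1 hep +/+ livers passed after adjustment of the test on r.

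The ER stress response element, through which ATF6 and XBP1 act on chaperone genes with the factor NF-Y, reads CCAAT, 9 bases of any kind and CCACG. It was found on either strand in the windows of 9 of the 31 genes matched to the table, which were Hspa5, Hsp90b1, Calr, Canx, Creld2, Dnajc3, Pdia6, Syvn1 and Derl3. Over all 27025 genes with a window 37 had it, or 0.137%. Below are 35 bases around the element in 6 of these genes, written along the strand on which it reads CCAAT to CCACG and with both ends of the element in capitals.
Hspa5 (chr2:34772017-34772051, + strand): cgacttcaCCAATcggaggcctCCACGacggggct
Hsp90b1 (chr10:86705525-86705559, + strand): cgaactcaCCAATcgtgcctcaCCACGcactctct
Hsp90b1 (chr10:86705630-86705664, - strand): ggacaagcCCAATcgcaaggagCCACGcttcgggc
Calr (chr8:84847067-84847101, + strand): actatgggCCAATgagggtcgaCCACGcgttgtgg
Creld2 (chr15:88819512-88819546, - strand): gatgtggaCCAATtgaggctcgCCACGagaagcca
Syvn1 (chr19:6046524-6046558, + strand): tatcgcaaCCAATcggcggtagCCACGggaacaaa
Derl3 (chr10:75893234-75893268, - strand): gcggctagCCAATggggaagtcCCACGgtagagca
Hsp90b1 has 2 copies in its window. The elements of these genes began 44 to 212 bases before the start of the gene. Of the 9 genes with the element 1 was called between the genotypes, Derl3, a share near the 8.70% of all genes tested.

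Of 8 degradation and translocation genes 1 passed (12.5%), near the 8.70% of all genes tested. Derl3, a derlin of the ER membrane that helps export misfolded glycoproteins, read 7.20, 7.43 and 7.92 in LRH-1 hep-/- livers and 6.33, 6.92 and 7.69 in LRH-1 hep +/+ livers. It rose by 0.53 ± 0.15 (SE), or 1.44-fold (limma adjusted p = 0.0316), with 2 LRH-1 hep-/- livers above every control and 6 controls below every LRH-1 hep-/- liver. This call was narrow. It was lost without any 1 of LRH-1 hep-/- livers 1, 3 or 8 or LRH-1 hep +/+ livers 1, 2, 3, 7 or 8, at limma adjusted p-values of 0.0518 to 0.072 and differences of 0.43 to 0.52. Derl3 is also known from plasma cells, whose markers Jchain, Mzb1 and Tnfrsf17 differed by 0.07, 0.06 and -0.05 and did not pass. These markers were dim, with means of 3.38, 5.51 and 4.68 in LRH-1 hep-/- and 3.31, 5.44 and 4.73 in LRH-1 hep +/+ livers. The part of plasma cells in the change of Derl3 was not tested. The 4 plasma cell markers summed to intensities of 425 to 501 in LRH-1 hep-/- and 570 to 811 in LRH-1 hep +/+ livers, with Sdc1, a syndecan that hepatocytes also make, as the 1 that passed (-0.62, limma adjusted p = 1.7e-05).

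The other derlins did not pass. Derl1 differed by 0.15 (95% interval 0.04 to 0.26, limma adjusted p = 0.0963) and passed without LRH-1 hep +/+ liver 1 (0.0426). Derl2 differed by -0.31 (-0.59 to -0.02, limma adjusted p = 0.224), with LRH-1 hep-/- liver 8 far below the rest at 7.99, and by -0.18 without that liver. Of the HRD1 ligase complex, neither gene passed, with Sel1l at -0.09 (-0.26 to 0.09) and Syvn1 at 0.10 (-0.22 to 0.41). Herpud1, an ER membrane protein of the same complex, differed by 0.07 (-0.20 to 0.33) and the mannosidase-like Edem1 by -0.08 (-0.20 to 0.03). Sec61b, a subunit of the translocon, differed by -0.06 (-0.39 to 0.27), and its 3 probe sets gave -0.06, -0.03 and -0.04.

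Further genes of the secretory machinery gave a few calls in both directions. Of 16 other chaperones and folding enzymes 2 rose and 1 fell (18.8%), beside 8.70% of all genes tested. Fkbp7, an ER prolyl isomerase, read 6.29 to 6.59 in LRH-1 hep-/- and 6.00 to 6.29 in LRH-1 hep +/+ livers and rose by 0.28 (limma adjusted p = 0.00501). Dnajc10, an ER disulphide reductase, rose by 0.27 (limma adjusted p = 0.0235), a call lost without LRH-1 hep-/- liver 1 (0.0562) or LRH-1 hep-/- liver 2 (0.0538). Pdia5 differed by -0.43 (limma adjusted p = 0.0227), lost without LRH-1 hep-/- liver 2 (0.0524) or LRH-1 hep-/- liver 5 (0.0508). Of 26 translocon, signal peptidase and vesicle genes under XBP1, 1 rose and 1 fell (7.69%), near the 8.70% of all genes tested. Before adjustment 12 (46.2%) had a limma p under 0.05, beside 17.6% of all genes. Of the 26 differences 19 were above 0, beside 9772 of 19237 over all genes. Their median was 0.098, against 0.002 over all genes. Sec11c, a catalytic subunit of signal peptidase, rose by 0.27 (limma adjusted p = 0.00477), and Sec63, a J-domain protein of the translocon, differed by -0.31 (limma adjusted p = 0.00617). Of 23 other degradation genes none passed and 3 (13.0%) had an unadjusted p under 0.05, fewer than the 17.6% of all genes, led by Edem3 (-0.27, limma adjusted p = 0.0567), which passed without LRH-1 hep +/+ liver 3 (0.0459), LRH-1 hep-/- liver 3 (0.0198) or LRH-1 hep-/- liver 4 (0.0374). Of 9 relatives of ATF and CREB and their proteases none passed and 2 (22.2%) had an unadjusted p under 0.05, led by Creb3l4 (-0.18). Of 7 cytosolic heat shock genes none passed in limma, beside 8.70% of all genes tested. Before adjustment 1 (14.3%) was under 0.05 in limma, beside 17.6% of all genes. That was Hspb1, with a difference of -0.65 and control livers from 7.37 to 9.49, and it passed without LRH-1 hep +/+ liver 1 (limma adjusted p = 0.0104).

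Of 9 genes of the IRE1 to JNK route and of cell death, 2 rose and 7 did not pass, beside 5.49% higher among all genes tested. Jun, the AP-1 subunit that JNK phosphorylates, read 7.28, 8.14 and 8.72 in LRH-1 hep-/- livers and 6.53, 7.11 and 7.42 in LRH-1 hep +/+ livers. It rose by 1.06 ± 0.17 (SE), or 2.09-fold (limma adjusted p = 0.000194). Casp12, an ER-associated caspase of mice, rose by 0.77 ± 0.15 (limma adjusted p = 0.00181). It was dim, with means of 4.77 in LRH-1 hep-/- and 4.00 in LRH-1 hep +/+ livers. Among the other 4 polo-like kinase genes 3 rose (75.0% of a very short list), beside 5.49% higher among all genes tested. Plk2 read 6.46, 6.72 and 6.98 in LRH-1 hep-/- livers and 5.62, 5.78 and 6.13 in LRH-1 hep +/+ livers, with no overlap. It rose by 0.90 ± 0.08 (SE), or 1.86-fold (limma adjusted p = 2.33e-07). Plk1, a driver of mitosis, rose by 0.53 ± 0.11 (limma adjusted p = 0.00304), and Plk4, the kinase of centriole duplication, by 0.23 ± 0.06 (limma adjusted p = 0.0202). Both were dim, with means of 5.26 and 3.90 in LRH-1 hep-/- and 4.73 and 3.67 in LRH-1 hep +/+ livers. Plk5, named after its value was seen, read 4.91, 5.19 and 5.61 in LRH-1 hep-/- livers and 5.24, 5.35 and 5.64 in LRH-1 hep +/+ livers. Its difference of -0.18 (95% interval -0.36 to 0.01) did not pass (limma adjusted p = 0.316). The Plk4 call was lost without the arrays with adipocyte transcripts (limma adjusted p = 0.115). Some stellate cell markers and 1 cholangiocyte marker also passed, beside 8.70% of all genes tested. Of 5 stellate cell markers Dcn (0.43) and Reln (0.42) rose, Lrat (-0.54) fell, and Des (0.02) and Col1a1 (0.19) did not pass. The 5 summed to intensities of 2170 to 3180 in LRH-1 hep-/- and 1870 to 2750 in LRH-1 hep +/+ livers. Of 4 cholangiocyte markers Epcam (0.31) rose, at dim means of 4.69 in LRH-1 hep-/- and 4.38 in LRH-1 hep +/+ livers. Krt19 (0.11), Krt7 (0.11) and Sox9 (0.14) did not pass. The sum of the 4 was 246 to 322 in LRH-1 hep-/- and 214 to 271 in LRH-1 hep +/+ livers. The part of these cells in the changes of Jun, Casp12, Plk1, Plk2 and Plk4 was not tested. Counted over all 141 further pathway genes, 8 rose and 5 fell, or 9.22%, beside 8.70% of all genes tested.

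**Figure D4:**
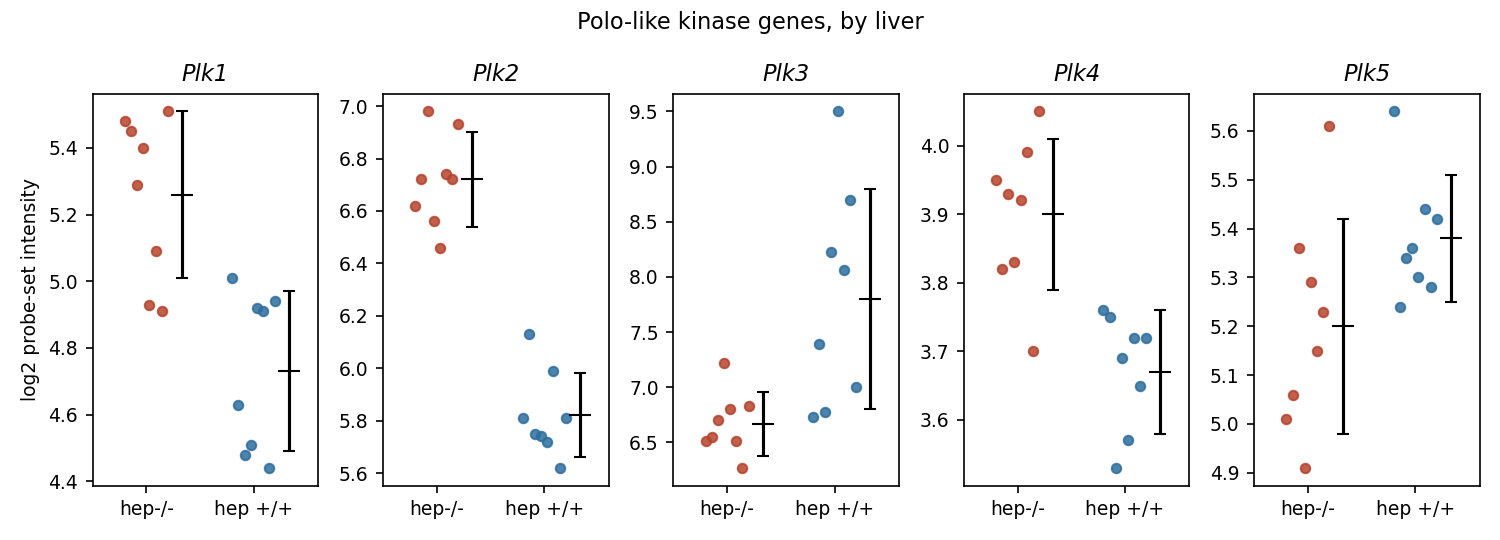
Log2 intensity of Plk1, Plk2, Plk3, Plk4 and Plk5 in each of the 8 LRH-1 hep-/- livers (red, left) and 8 LRH-1 hep +/+ livers (blue, right), with the mean and SD in black, each panel on its own axis. Plk3 is lower in LRH-1 hep-/- livers, where Plk1, Plk2 and Plk4 are higher, and Plk5 did not pass.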

How the data were processed

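The deposited table holds linear probe-set intensities for 35556 probe sets on 16 arrays. Per the submitters' processing notes, the authors used Expression Console of Affymetrix to make these intensities. Its version, background correction, summary and normalization are not given in these sources. Array medians were 38.9 to 43.5. The values were taken to log2 with no further scaling or filter, so a shift shared by most genes could be hidden. The platform annotation paired 21456 probe sets with 1 gene, which left 19237 genes at 1 probe set each. Levels were not compared between probe sets. The number of arrays limits the precision.

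The genotypes were compared by a 1-term model for genotype in limma 3.58.1 under R 4.3.3, and p-values were adjusted by Benjamini-Hochberg over all 19237 genes. The steps were tested on simulated data. The members and the gene lists were chosen with earlier results of these data known. All members may be named; of other lists, up to 4 passing genes with the smallest p, or the 1 smallest, with Plk5 added later. Ddit3 with Trib3, a planned relation, was not run. Promoter sequences are from RefSeq, build GRCm38.p6, matched by symbol for 31 of 36 genes.
Alternatives were the replicate number as a block, 2 other scalings, 2 filters on dim genes, the mean of probe sets, a variance trend, array weights and the removal of arrays. The deviations of the livers gave no sign that equal replicate numbers mark pairs, which does not exclude pairing.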

Additional observations from a re-analysis of the deposited data

Results flagged for a closer look

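Among 114 sets of 8 livers (each named gene in each genotype), 13 had a lowest or highest liver far from the rest, where chance gives about 1 in 20. LRH-1 hep +/+ liver 3 was such a lowest value in 7 genes, at 6.50 in Eif2ak3, 9.11 in Hyou1, 8.11 in Creld2, 7.71 in Manf, 9.37 in Dnajb9, 10.40 in Herpud1 and 8.56 in Syvn1. LRH-1 hep-/- liver 8 was lowest in Derl2 (7.99) and Ero1b (7.43). LRH-1 hep-/- liver 2 was lowest in Syvn1 (8.73) and LRH-1 hep-/- liver 5 in Pdia6 (8.96). LRH-1 hep +/+ liver 4 was highest in Ern1 (9.08) and LRH-1 hep-/- liver 1 in Ppp1r15a (5.78).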

How the results depend on the processing

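The results were recomputed under 27 other settings, 2 of them chosen after seeing the data, namely without the 3 arrays that stand apart and without LRH-1 hep +/+ liver 3 and LRH-1 hep-/- liver 2. Nr5a2, Atf4, Ppp1r15b and Eif2ak3 kept their direction and passed in each. The count of members called lower was 3 to 4 over the fits that leave out 1 liver, and 1 to 3 were called higher. The count called higher was 2 in the main fit. That count was 1 after median centring and without the arrays with adipocyte transcripts. The same held in the separate fits without the 3 arrays that stand apart and without the 2 livers low in chaperones. Of the other pathway genes 10 were called lower after quantile normalization, 10 with array weights and 8 without the 3 arrays that stand apart, and 4 to 7 lower and 7 to 10 higher without 1 liver. With robust variances and an intensity trend Plk3 did not pass, at the same size (-1.13), and ran from -1.28 to -0.88 without 1 liver. Derl3 did not pass with the replicate block (0.53, limma adjusted p = 0.0654), after median centring (0.50), with array weights (0.42), without the arrays with adipocyte transcripts (0.48), without the 3 arrays that stand apart (0.47) or without the 2 livers low in chaperones (0.45), and ran from 0.43 to 0.63 without 1 liver. The cause was not tested.

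Deviations of livers with equal replicate numbers correlated at -0.262 to 0.235, and none correlated best with its own number. With the replicate block 3 members were called lower and 2 higher, and Atf3 passed (limma adjusted p = 0.0215).

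Values near 0 turned sign without passing. These were Trib3 (-0.02 after quantile normalization, -0.01 after centring), Sesn2 (-0.02 under both, -0.01 with array weights, -0.05 without the 2 livers low in chaperones), Creld2 (-0.04 with array weights, -0.05 without the 3 arrays that stand apart), Manf (0.02) and Sec61b (0.06) without those 3 arrays, Sec61b with array weights (0.05) and Pdia3 without the adipocyte arrays (-0.02). Without 1 liver each, Trib3 ran from -0.02 to 0.06, Sesn2 from -0.03 to 0.05, Hspa5 from -0.01 to 0.09, Sdf2l1 from -0.03 to 0.17, Creld2 from -0.08 to 0.24, Manf from -0.10 to 0.05, Dnajb11 from -0.08 to 0.02, Herpud1 from -0.04 to 0.12, Syvn1 from -0.02 to 0.21 and Sec61b from -0.14 to 0.06.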
